A study of Homo sapiens with 15 samples.

Results

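The genes described here are 10 splicing factor genes that carry so-called poison exons, namely SRSF1, SRSF2, SRSF3, SRSF4, SRSF5, SRSF6, SRSF7, SRSF11, TRA2A and TRA2B. They were taken by symbol from the deposited table, where each has 1 row for 1 listed Ensembl transcript, and they make up 10 of its 12261 genes. The members were not chosen for their measured values, but earlier results of these data were known when they were chosen. The RNA came from HEK-293 Trex, a cell line of human embryonic kidney origin in which a transgene can be switched on, and every group had received 200 ng/mL doxycycline. RNA co-purified with CLIP-tagged UPF1 isoform 1 (UPF1-1 IP) or CLIP-tagged UPF1 isoform 2 (UPF1-2 IP) was sequenced, as was total RNA of both UPF1 lines and of a line expressing GFP (GFP total RNA), with 3 libraries in each of the 5 groups. Each construct was carried by its own line, the tagged UPF1 was made on top of the cells' own UPF1, and recovery can be set against total RNA only, since a mock purification was not among the samples. It is not stated that replicates came from separate cultures, and p-values here reflect the spread among these libraries, which may be technical.

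SR proteins bind exonic sequences through RNA recognition motifs and recruit the splicing machinery through a tail rich in arginine and serine (RS). Their own genes hold conserved alternative exons or introns whose inclusion places a premature stop codon in the mRNA. Such mRNAs are degraded by nonsense-mediated decay (NMD), for which the RNA helicase UPF1 is needed, and a rise in the SR protein raises the share of its mRNA spliced in this unproductive way. The tagged isoforms of UPF1 differ in a regulatory loop of the helicase core, which is longer in isoform 1. The table does not say whether a listed transcript holds the poison exon, and other transcripts of the 10 genes were not analysed here, so the values describe the listed transcripts and not the productive and unproductive forms of a gene.

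Levels are given as TPM, the abundance of a transcript relative to all transcripts of its library, corrected for transcript length. The listed genes together held 44.7 to 69.9% of the TPM scale in the IP libraries and 12.2 to 19.0% in total RNA, and replicate 3 was the highest of its group in all 5 groups. For tests, log2(TPM + 0.5) values were therefore shifted so that all libraries had the same median, and the replicate number was kept as a block (the blocked and centred fit of limma, with Benjamini-Hochberg adjusted p over all genes tested and a threshold of 0.05). UPF1, the induced gene, had 106, 94.5 and 186 TPM in total RNA of the UPF1-1 line and 68.9, 72.7 and 171 TPM in that of the UPF1-2 line, against 3.24, 3.80 and 8.57 TPM in that of the GFP line. Of 7 genes known from HEK-293 cells, NEFL, VIM, KRT8 and KRT18 had a row, at 6.37 TPM or more in every library, and NEFM, PAX2 and LHX1 had none. None of 6 blood, liver, fibroblast or endothelial markers had a row.

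In total RNA the listed transcripts of the 10 genes ranged in mean level from 4.58 TPM for SRSF11 to 44.9 TPM for SRSF2 in the UPF1-1 line, from 5.13 to 47.5 TPM in the UPF1-2 line and from 4.74 to 47.4 TPM in the GFP line, with these genes at the ends each time. SRSF2 (ENSG00000161547, transcript ENST00000359995), which acts in constitutive and alternative splicing, was the most abundant at 40.4, 42.9 and 51.3 TPM in UPF1-1 total RNA, 34.5, 41.2 and 66.6 TPM with UPF1-2 and 41.4, 47.2 and 53.5 TPM in GFP total RNA. SRSF1 (ENSG00000136450, ENST00000584773), the founding family member, had 30.8, 31.8 and 37.5 TPM in UPF1-1 total RNA, 23.8, 30.8 and 53.3 TPM with UPF1-2 and 29.1, 33.0 and 41.1 TPM in GFP total RNA. The values of the 3 lines overlapped for both genes, and SRSF2 was above SRSF1 in each of the 9 libraries.

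SRSF3 (ENSG00000112081, ENST00000373715) and SRSF7 (ENSG00000115875, ENST00000313117) are close relatives that link splicing to mRNA export. SRSF3 had 26.5, 27.0 and 29.1 TPM with UPF1-1 and 24.4, 26.6 and 39.6 TPM with UPF1-2, against 26.8, 30.1 and 32.1 TPM with GFP. SRSF7 had 24.0, 23.9 and 25.8 TPM with UPF1-1 and 19.5, 19.7 and 29.8 TPM with UPF1-2, against 22.6, 25.7 and 25.1 TPM with GFP. TRA2B (ENSG00000136527, ENST00000453386), a splicing activator with an RS region on either side of its RNA recognition motif, followed at means of 20.5 ± 4.29 TPM (SD, n = 3 here and below) with UPF1-1, 19.6 ± 7.92 TPM with UPF1-2 and 18.6 ± 4.49 TPM with GFP. Thus 5 transcripts formed an upper set, and in all 9 libraries each of them was above every one of the other 5.

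The lower set held SRSF6 (ENSG00000124193, ENST00000244020), SRSF5 (ENSG00000100650, ENST00000553521), SRSF4 (ENSG00000116350, ENST00000605204), TRA2A (ENSG00000164548, ENST00000297071) and SRSF11 (ENSG00000116754, ENST00000405432). SRSF4, SRSF5 and SRSF6 are a subfamily whose proteins pair an RNA recognition motif with a second, atypical copy of it. SRSF6 had 7.60, 8.10 and 11.3 TPM with UPF1-1 and 6.76, 8.06 and 13.7 TPM with UPF1-2, against 7.07, 8.16 and 10.4 TPM with GFP, and the lines overlapped. SRSF5 averaged 6.93 ± 2.29 TPM with UPF1-1 and 5.82 ± 3.43 TPM with UPF1-2, against 6.23 ± 2.35 TPM with GFP. SRSF4 averaged 5.79 ± 2.21 TPM with UPF1-1 and 5.86 ± 3.80 TPM with UPF1-2, against 5.35 ± 1.58 TPM with GFP. The SDs of both genes, which include the rise in replicate 3 shared by the groups, were wider than the gaps between their means. TRA2A, the paralog of TRA2B, averaged 5.50 ± 0.73 TPM with UPF1-1, 5.51 ± 2.38 TPM with UPF1-2 and 5.87 ± 1.27 TPM with GFP. SRSF11, an SR-related factor that binds U2AF, averaged 4.58 ± 0.61 TPM with UPF1-1, 5.13 ± 2.91 TPM with UPF1-2 and 4.74 ± 1.37 TPM with GFP. SRSF5, SRSF4, TRA2A and SRSF11 overlapped their neighbours in this order in all 3 lines.

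**Figure D1:**
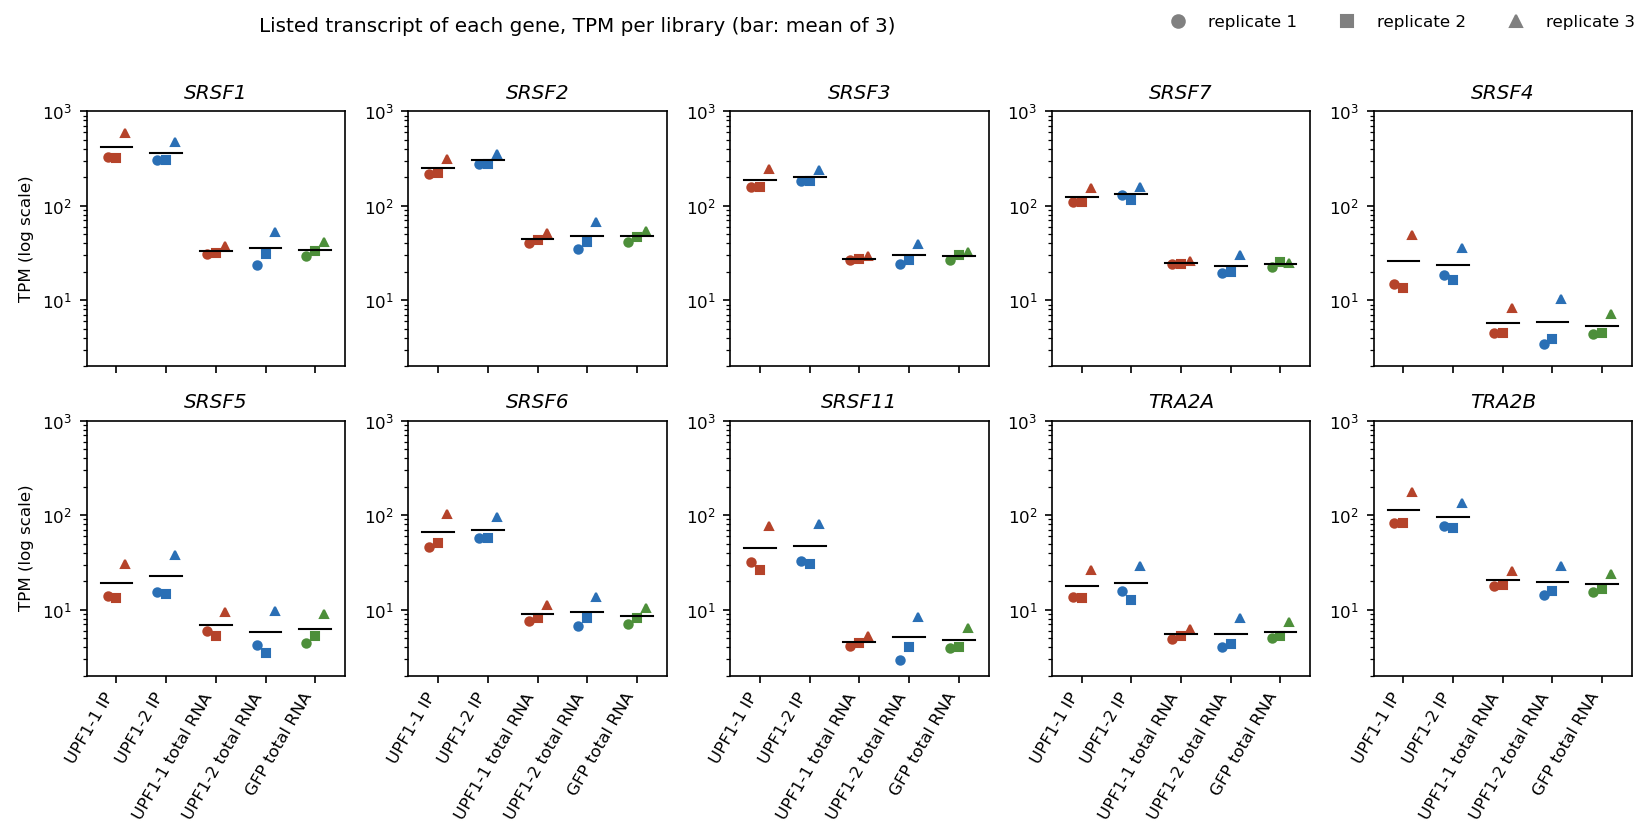
TPM of the listed transcript of each gene on a log axis, 1 point per library with the marker shape for the replicate number and a bar at the mean of 3; groups from left to right are UPF1-1 IP, UPF1-2 IP, UPF1-1, UPF1-2 and GFP total RNA. All IP points of a gene lie above all its total RNA points, and replicate 3 is the highest in the IPs.

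The first comparisons asked whether these transcripts changed in total RNA of cells with induced UPF1, and they changed little. With UPF1-1 against GFP, SRSF3 was called lower, and the other 9 transcripts were not called. With UPF1-2 against GFP, and between the UPF1 lines, none of the 10 was called. SRSF3 centred differences from GFP were -0.20, -0.19 and -0.18 (log2) for UPF1-1 in replicates 1, 2 and 3, and -0.02, -0.10 and 0.02 for UPF1-2. The UPF1-1 values were thus nearly equal in the 3 replicates, while those of UPF1-2 lay on both sides of 0. In bulk RNA, fewer cells with a transcript and less of it per cell cannot be told apart. In the UPF1-1 comparison SRSF3 fell by 0.19 ± 0.05 (SE) on the log2 scale with a limma adjusted p of 0.036.

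That call was 1 member of 10 lower and 0 higher, where 16.2% of the 9325 genes tested were called (7.79% lower and 8.38% higher), so the members' share was near that of all genes. The call is lost without the block, at a limma adjusted p of 0.97, and without any of the replicates, at 0.052 to 0.25. Without centring the SRSF3 difference was -0.10 with an adjusted p of 0.74. In the authors' deposited table no member had a sleuth q-value under 0.05 in these comparisons, the lowest p being 0.288 for UPF1-1 and 0.261 for UPF1-2 against GFP.

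SRSF2 and TRA2A lay below GFP in the UPF1-1 line as well without passing the test. SRSF2 differed by -0.17 ± 0.05 (SE) in that comparison with a limma adjusted p of 0.071, and it was lower in 3 of 3 replicates. TRA2A differed by -0.16 ± 0.07 with UPF1-1 (adjusted p = 0.14 by limma) and by -0.16 ± 0.07 with UPF1-2 (adjusted p = 0.39), lower in 3 of 3 replicates each time. Both comparisons use the same 3 GFP libraries. The member median was -0.09 with UPF1-1, against -0.01 over all 9325 genes, and -0.03 with UPF1-2, against -0.02 over all genes. With UPF1-1, 8 of 10 members were below 0 and with UPF1-2, 9 of 10. Values below 0 were common over all genes as well. SRSF4, at -0.01 with UPF1-1, had 52% of the genes tested below it, and TRA2B, at -0.00 with UPF1-2, had 55.4%. TRA2B (0.05 ± 0.05 and -0.00 ± 0.05) and SRSF6 (-0.02 ± 0.06 and 0.07 ± 0.06) were close to 0 in both lines.

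**Figure D2:**
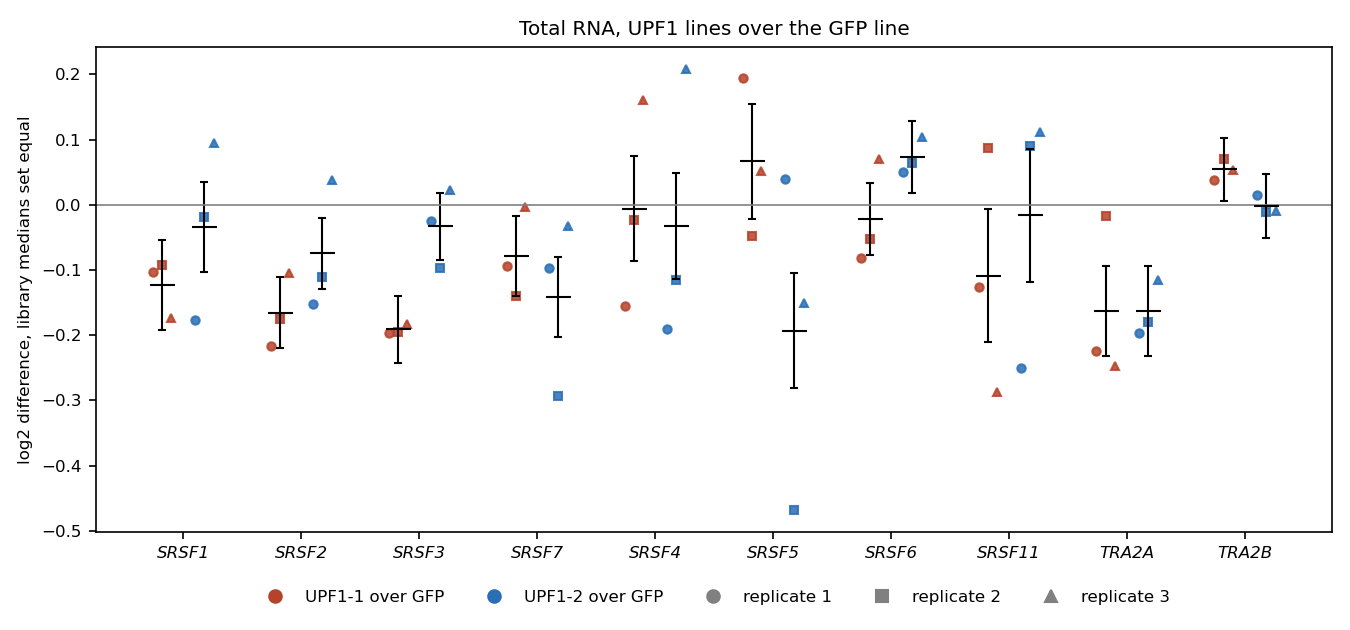
Difference in total RNA (log2, library medians set equal) of UPF1-1 over GFP and UPF1-2 over GFP for each gene, 1 point per replicate number; horizontal bars with whiskers give the fitted change ± SE. The UPF1-1 points of SRSF3 lie together at about -0.19. For every gene but SRSF7 and TRA2A, the 3 points of a comparison lie on both sides of 0 with at least 1 isoform.

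For UPF1-2 against GFP 0 members were called, beside 0.375% of all genes tested (0.279% higher and 0.0965% lower). For UPF1-1 against UPF1-2, 0 members were called, beside 9.51% of genes (5.49% higher and 4.02% lower). By limma without adjustment, 1128 and 2636 of the 9325 genes tested had a p under 0.05, among them 2 members in each comparison. These were SRSF7 (-0.14 ± 0.06) and TRA2A for UPF1-2 against GFP, and SRSF3 (-0.16 ± 0.05, limma adjusted p = 0.083) and SRSF5 (0.26 ± 0.09, adjusted p = 0.095) for UPF1-1 against UPF1-2. SRSF5 was higher with UPF1-1 than with UPF1-2 in 3 of 3 replicates, by 0.16, 0.42 and 0.20. The spread between replicates in SRSF5 total RNA was among the widest of the members, with an SE of 0.09, against 0.05 for TRA2B.

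The next comparisons asked how well each transcript was recovered with UPF1. All 10 had more TPM in every IP library than in any total RNA library, with ratios between 2.33 and 15.7 within a replicate in the authors' deposited table. The 10 transcripts summed to 1020, 1011 and 1766 TPM in UPF1-1 IP, against 167, 172 and 210 TPM in UPF1-1 total RNA. With UPF1-2 they summed to 1109, 1088 and 1629 TPM in the IP, against 138, 158 and 268 TPM in total RNA. As a share of all listed genes this was 0.230% ± 0.019 (SD, n = 3) in UPF1-1 IP, against 0.116% ± 0.003 in UPF1-1 total RNA, and 0.234% ± 0.009 in UPF1-2 IP, against 0.126% ± 0.014 in UPF1-2 total RNA. The mean level of the median listed gene also rose, from 1.94 to 14.2 TPM with UPF1-1 and from 1.97 to 13.5 TPM with UPF1-2. The higher share therefore does not mean that the members were recovered above the typical gene. SRSF1 alone had a mean of 414 TPM in UPF1-1 IP. Most genes had higher TPM in the IPs, and the median log2 ratio over the 11969 genes tested was 2.40 with UPF1-1 and 2.38 with UPF1-2 before centring, against -0.16 and -0.15 after it. The values that follow are centred, so a negative one does not mean less RNA in the IP, and a gene at -0.16 with UPF1-1 or -0.15 with UPF1-2 had the median recovery.

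On that scale the members did not move as a family. SRSF1 and SRSF11 were recovered above most genes, SRSF4, SRSF5 and TRA2A below most, and SRSF2, SRSF3, SRSF6, SRSF7 and TRA2B lay within 0.31 of 0. With UPF1-1, 3 members were called higher and 5 lower, beside 74.7% of all genes called (30.8% higher and 43.9% lower). With UPF1-2, 4 were called higher and 4 lower, beside 75.7% of all genes (31.5% higher and 44.2% lower). The member medians were -0.15 with UPF1-1 and 0.09 with UPF1-2, inside a range of -1.21 to 1.00 and of -0.84 to 0.83. These medians depended on the pseudocount. With 0.1 TPM they were -0.34 and -0.12, below the -0.05 and -0.06 of all genes. With 1 TPM they were 0.05 and 0.30, above the -0.20 of all genes with each isoform.

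SRSF1 had the highest fitted recovery of the members with both isoforms, although with UPF1-2 its range overlapped that of SRSF11 and it was the higher one in 2 of 3 replicates. It had 332, 320 and 590 TPM in UPF1-1 IP, against 30.8, 31.8 and 37.5 TPM in UPF1-1 total RNA. With UPF1-2 it had 304, 306 and 469 TPM in the IP, against 23.8, 30.8 and 53.3 TPM in total RNA. SRSF1, below SRSF2 in all 9 total RNA libraries, was above SRSF2 in all 6 IP libraries. Its centred log2 recovery was 0.96, 0.92 and 1.11 with UPF1-1 and 1.00, 0.80 and 0.68 with UPF1-2. The fitted values were 1.00 ± 0.08 (SE) and 0.83 ± 0.08, with limma adjusted p of 1.0e-05 and 2.9e-05, and 94.1% and 88.4% of the genes tested lay below. In all 10 centred alternatives SRSF1 was called higher with each isoform. The SRSF1 and SRSF5 loci each overlap a noncoding gene, and whether reads of these were separated is not given in the sources used here.

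SRSF11 came next, with a wide spread. It had 32.1, 26.1 and 76.7 TPM in UPF1-1 IP, against 4.07, 4.41 and 5.27 TPM in UPF1-1 total RNA. In UPF1-2 IP it had 32.5, 30.6 and 79.9 TPM, against 2.93, 4.02 and 8.43 TPM in UPF1-2 total RNA. Its centred recovery was 0.39, 0.05 and 0.90 with UPF1-1 and 0.62, 0.30 and 0.72 with UPF1-2, lowest in replicate 2 and highest in replicate 3 both times. It was called higher with each isoform, at 0.44 ± 0.15 (SE) and 0.55 ± 0.15 and limma adjusted p of 0.026 and 0.010. The UPF1-1 call was kept in 3 of 10 centred alternatives and the UPF1-2 call in 8. Without replicate 3 the UPF1-1 value was 0.21 with an adjusted p of 0.13, and without replicate 1 the adjusted p was 0.092 with UPF1-1 and 0.074 with UPF1-2. Without the block the adjusted p was 0.11 with UPF1-1 and 0.056 with UPF1-2.

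At the low end stood SRSF5, TRA2A and SRSF4. SRSF5 had 13.9, 13.4 and 30.5 TPM in UPF1-1 IP, against 5.96, 5.30 and 9.55 TPM in UPF1-1 total RNA. In UPF1-2 IP it had 15.3, 14.7 and 38.1 TPM, against 4.24, 3.48 and 9.75 TPM in UPF1-2 total RNA. The IP was thus above total RNA in every pair, by factors of 2.33, 2.52 and 3.20 with UPF1-1 and 3.61, 4.23 and 3.90 with UPF1-2 in the authors' deposited table. On the centred scale this was -1.29, -1.13 and -1.22 with UPF1-1 and -0.91, -0.55 and -0.54 with UPF1-2. The fitted recovery was -1.21 ± 0.09 (SE) and -0.67 ± 0.09, with limma adjusted p of 5.8e-06 and 0.00019, and 15.4% and 30.1% of the genes tested lay below it.

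TRA2A had 13.5, 13.3 and 26.2 TPM in UPF1-1 IP, against 4.88, 5.32 and 6.30 TPM in UPF1-1 total RNA. In UPF1-2 IP it had 15.6, 12.7 and 28.7 TPM, against 3.98, 4.28 and 8.25 TPM in UPF1-2 total RNA. Its fitted recovery was -1.03 ± 0.09 (SE) with UPF1-1 and -0.84 ± 0.09 with UPF1-2, with limma adjusted p of 1.3e-05 and 4.0e-05. The calls of SRSF5 and TRA2A held in all 10 centred alternatives with each isoform. SRSF4 had 14.8, 13.6 and 49.6 TPM in UPF1-1 IP, against 4.48, 4.55 and 8.35 TPM in UPF1-1 total RNA. In UPF1-2 IP it had 18.5, 16.4 and 35.8 TPM, against 3.47, 3.85 and 10.2 TPM in UPF1-2 total RNA. Its fitted recovery was -0.69 ± 0.12 and -0.54 ± 0.12 (limma adjusted p of 0.00068 and 0.0028), and the calls were lost without the block, at an adjusted p of 0.052 and 0.12.

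**Figure D3:**
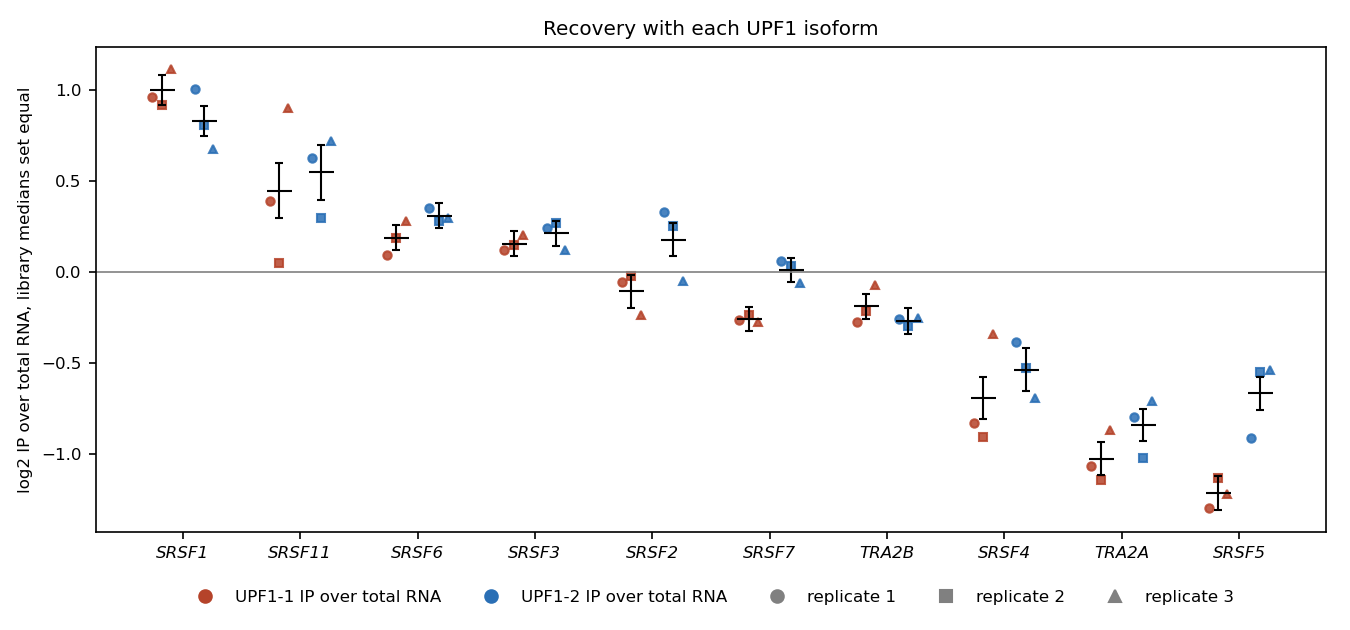
Recovery of each transcript (log2 of IP over total RNA, library medians set equal) with UPF1-1 and UPF1-2, 1 point per replicate number and bars with whiskers for the fitted value ± SE; genes are ordered by their mean over the isoforms. SRSF1 lies at 0.68 to 1.11 and TRA2A at -1.14 to -0.71, with SRSF2, SRSF3, SRSF6 and SRSF7 near 0.

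The other 5 members had 45.1 to 70.6% of the genes tested below them, and their calls depended on the settings. SRSF6 was called higher with both isoforms, at 0.19 ± 0.07 (SE) and 0.31 ± 0.07 with limma adjusted p of 0.037 and 0.0033. The UPF1-1 call was kept in 2 of 10 centred alternatives and the UPF1-2 call in 8. SRSF3 was called higher with UPF1-2 (0.21 ± 0.07, adjusted p = 0.019, kept in 4 of 10) and not with UPF1-1 (0.15 ± 0.07, adjusted p = 0.064). TRA2B was called lower with both, at -0.19 ± 0.07 and -0.27 ± 0.07 (adjusted p of 0.035 and 0.0066), kept in 5 and 6 of 10, although 48.6% and 45.1% of the genes tested lay below it. SRSF7 was called lower with UPF1-1 (-0.26 ± 0.06, adjusted p = 0.0062, kept in 7 of 10) and stood at 0.01 ± 0.06 with UPF1-2. SRSF2 was not called, at -0.11 ± 0.09 and 0.18 ± 0.09 (adjusted p of 0.31 and 0.11). Without replicate 3, SRSF2 passed with UPF1-2, at 0.28 and an adjusted p of 0.0037. Without the block, SRSF6 with UPF1-1 had an adjusted p of 0.21, SRSF7 with UPF1-1 of 0.16, TRA2B of 0.19 and 0.066 and SRSF3 with UPF1-2 of 0.20.

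Some relatives did not overlap in recovery. TRA2A lay below TRA2B in 3 of 3 replicates with each isoform, at -0.87 or less with UPF1-1 and -0.71 or less with UPF1-2, against -0.28 or more and -0.30 or more for TRA2B. Within the SRSF4, SRSF5 and SRSF6 subfamily, SRSF6 was at 0.09 to 0.28 with UPF1-1 and 0.28 to 0.35 with UPF1-2, without overlap with SRSF4 at -0.91 to -0.34 and -0.69 to -0.39 or with SRSF5, while SRSF4 and SRSF5 overlapped with UPF1-2. SRSF3 and SRSF7 did not overlap either, at 0.12 to 0.20 against -0.27 to -0.24 with UPF1-1 and at 0.12 to 0.27 against -0.06 to 0.06 with UPF1-2. These orders are within libraries and carry no test between genes. The members recovered least, SRSF5, TRA2A and SRSF4, were also among the less abundant in total RNA, but SRSF11, the least abundant by mean in all 3 lines, was recovered second best. In the authors' table the estimated counts of the members (geometric mean over UPF1-1 and GFP total RNA) ran from 887 for SRSF5 to 13984 for SRSF3, so SRSF5, TRA2A (1157) and SRSF4 (1387) also rest on the fewest reads.

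**Figure D4:**
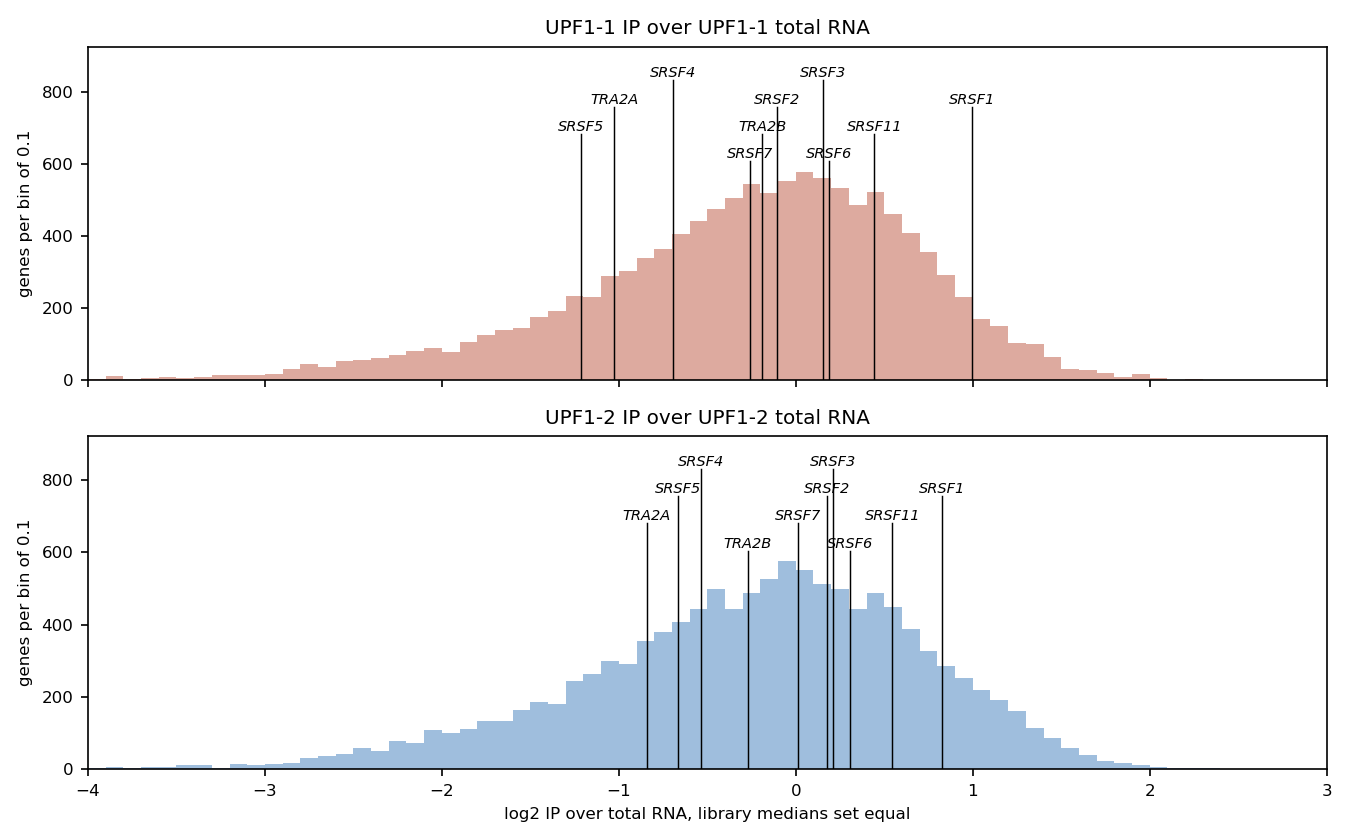
Number of genes by recovery (log2 of IP over total RNA, library medians set equal, bins of 0.1) with UPF1-1 in the upper and UPF1-2 in the lower panel, with the 10 members marked; a few genes of low recovery lie outside the axis. SRSF1 and SRSF11 lie toward the upper end and SRSF5, TRA2A and SRSF4 toward the lower end, with the other members between them.

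The last comparison set the isoforms' recoveries against each other. SRSF5 was recovered less well with UPF1-1 than with UPF1-2, and no other member was called. The centred differences of SRSF5 were -0.38, -0.58 and -0.68 in replicates 1, 2 and 3. The fitted difference was -0.55 ± 0.13 (SE) with a limma adjusted p of 0.037. That is 1 member of 10 lower and 0 higher, beside 10.7% of 11969 genes (6.27% lower and 4.43% higher). The SRSF5 call was lost without the block (adjusted p = 0.81), without centring (0.22) and without replicate 1, 2 or 3 (0.29, 0.15 and 0.091). The IP levels themselves overlapped, at 13.9, 13.4 and 30.5 TPM with UPF1-1 and 15.3, 14.7 and 38.1 TPM with UPF1-2, and SRSF5 total RNA was the higher one in the UPF1-1 line in 2 of 3 replicates before centring.

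SRSF7 and SRSF2 were the next in size and did not pass. SRSF7 differed by -0.27 ± 0.09 (limma adjusted p = 0.096) and SRSF2 by -0.28 ± 0.13 (adjusted p = 0.18), each lower with UPF1-1 in 3 of 3 replicates. SRSF1 differed by 0.17 ± 0.12 and TRA2B by 0.08 ± 0.10. In all, 8 of 10 members were below 0 and their median was -0.14, against -0.04 over all genes. SRSF3, at -0.06, had 48.3% of the genes tested below it.

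Further genes of the SR protein system were taken from lists that were chosen with earlier results of these data known. Of 24 other SR and SR-related splicing proteins, all with a row, 22 were tested in total RNA. With UPF1-1 against GFP 6 were lower and 0 higher, beside 7.79% and 8.38% of all genes (median -0.05, against -0.01 over all genes). They were SCAF11 (-0.49 ± 0.09), SRRM1 (-0.46 ± 0.06), a coactivator that bridges SR proteins, SON (-0.38 ± 0.06) and SRRM2 (-0.29 ± 0.08), large proteins of nuclear speckles, RBM25 (-0.35 ± 0.08), and U2AF1 (-0.30 ± 0.06), which recognises the 3′ splice site. SRRM1, SON, RBM25 and U2AF1 were also lower with UPF1-1 than with UPF1-2, by 0.30 to 0.35. With UPF1-2 against GFP none of the 22 was called by limma, and 3 had an unadjusted p under 0.05, beside 1128 of all 9325 genes. For UPF1-1 against GFP, by limma, 0 passed without the block (2 had an unadjusted p under 0.05). Beside them, 11 of all 9325 genes were then higher and 5 lower (706 unadjusted). Without centring 0 passed (3 unadjusted), beside 266 higher and 35 lower of all genes (1626 unadjusted). Of the list, 3 passed without replicate 1 and 0 without replicate 2 (9 unadjusted).

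In the IPs, 7 of the 24 were higher and 10 lower with UPF1-1, and 7 higher and 8 lower with UPF1-2, beside 74.7% and 75.7% of all genes in either direction. Without the block the counts were 7 and 7 with UPF1-1, beside 2368 higher and 3832 lower of all 11969 genes, and 6 and 6 with UPF1-2, beside 2526 and 3965. These counts include genes such as SREK1, at 0.405 to 0.867 TPM in UPF1-1 total RNA and 12.6 to 39.5 TPM in UPF1-1 IP. Such genes passed the filter on low values through the IPs, so they were selected by values that the test itself uses. RBM25 (1.38 ± 0.11 and 1.40 ± 0.11), RBM39 (0.72 ± 0.08 and 0.79 ± 0.08) and SRSF10 (1.00 ± 0.09 and 0.82 ± 0.09), a splicing repressor after dephosphorylation, were recovered well with UPF1-1 and UPF1-2. SRRM2 (-2.27 ± 0.18 and -1.85 ± 0.18), U2AF1 (-1.82 ± 0.07 and -1.29 ± 0.07) and the SR protein gene SRSF9 (-1.69 ± 0.07 and -1.78 ± 0.07) were recovered poorly. SRSF9 had 73.0, 66.1 and 227 TPM in UPF1-1 IP, against 41.9, 42.2 and 100 TPM in UPF1-1 total RNA. The members' range of -1.21 to 1.00 with UPF1-1 thus lay inside the span of SRRM2 and RBM25, -2.27 to 1.38.

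SR proteins are phosphorylated by SRPK and CLK kinases and imported into the nucleus by TNPO3. Of 13 genes for these kinases, phosphatases and the importer, 12 had a row and 10 were tested in total RNA. DYRK1A (-0.30 ± 0.07) and PPP1CC (-0.23 ± 0.06) were lower with UPF1-1 than in GFP total RNA, as were 7.79% of all genes. Neither of the 2 passed without the block, without centring or with any replicate left out. None was called with UPF1-2 by limma, where 0 had an unadjusted p under 0.05, beside 1128 of all 9325 genes. In the IPs 4 of 12 were higher and 5 lower with UPF1-1, beside 74.7% of all genes called in either direction. With UPF1-2, 5 were higher and 4 lower, beside 75.7% of all genes. Without the block the list's counts were 2 and 3 with UPF1-1, beside 2368 and 3832 of all 11969 genes. With UPF1-2 they were 4 and 3, beside 2526 and 3965. CLK4 and SRPK3, under 1 TPM in every total RNA library of the UPF1 lines, passed the filter through the IPs. The kinase genes DYRK1A (0.57 ± 0.13 and 0.81 ± 0.13) and SRPK2 (0.55 ± 0.10 and 0.45 ± 0.10) were called higher, and the phosphatase gene PPP1CA (-0.74 ± 0.14 and -0.89 ± 0.14) lower. Their median was 0.01 with UPF1-1 and 0.21 with UPF1-2, against -0.16 and -0.15 over all genes.

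The third list held 13 other RNA-binding protein genes known for autoregulated unproductive splicing, of which 12 had a row. In total RNA of UPF1-1 against GFP, 3 of 11 tested were lower and 1 higher, beside 7.79% and 8.38% of all genes. TARDBP (-0.34 ± 0.09) and HNRNPA2B1 (-0.32 ± 0.08) were among the lower ones. The higher one was the core snRNP protein gene SNRPB (0.34 ± 0.07). With UPF1-2 none was called by limma, and 1 had an unadjusted p under 0.05, beside 1128 of all 9325 genes. In the IPs 2 were higher and 7 lower with UPF1-1, beside 30.8% and 43.9% of all genes. With UPF1-2, 2 were higher and 5 lower, beside 31.5% and 44.2%. Without the block the list's counts were 0 and 4 with UPF1-1, beside 2368 and 3832 of all 11969 genes. With UPF1-2 they were 0 and 3, beside 2526 and 3965. PTBP2, under 1 TPM in every total RNA library of the UPF1 lines, passed the filter through the IPs. PTBP1, a repressor that also restrains NMD, was recovered at 0.61 ± 0.07 with UPF1-1 and 1.19 ± 0.07 with UPF1-2, a difference of -0.58 ± 0.10 that passed (limma adjusted p = 0.017) but did not pass without the block, without centring or without replicate 1 or 2. TIA1, a stress granule protein gene, was the lowest with UPF1-1, at -2.20 ± 0.57, but had 0.553, 0.964 and 12.9 TPM in UPF1-1 IP, against 1.65, 1.19 and 2.21 TPM in UPF1-1 total RNA, so replicate 3 stood far above the others. The median recovery of the list was -0.46 with UPF1-1 and -0.07 with UPF1-2, against -0.16 and -0.15 over all genes. By limma without the block none of the list's genes passed in total RNA, and 2 had an unadjusted p under 0.05 for UPF1-1 against GFP. Beside them, 706 of all 9325 genes had an unadjusted p under 0.05 there, and 11 were called higher and 5 lower.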

How the data were processed

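The deposited table holds TPM per library, per the file headers, with 1 Ensembl transcript per gene. The submitters' processing notes list cutadapt, kallisto, sleuth and hg19, with no versions or roles. Per the labels, ribosomal RNA was depleted and libraries were made with a TruSeq RNA kit; how strand was treated is not given in the sources used here. The authors also deposited ratios of IP to total TPM, log2 fold changes, sleuth p-values and q-values, effects on the natural log scale and their SEs; their mean natural log of estimated counts was exponentiated here to give depth. In RefSeq (GRCh38.p14) SRSF2 overlaps MFSD11 and MIR636, SRSF4 overlaps MECR, and SRSF1 and SRSF5 each overlap a noncoding gene, so reads could be shared there.

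Here log2(TPM + 0.5) was fitted with limma 3.58.1 in R 4.3.3 (lmFit, eBayes with trend), on genes that reached 1 TPM in 3 or more of the libraries fitted, a filter that all 10 members passed. It covered 9 libraries with 9325 genes for total RNA, and for the IPs 12 with 11969. The block was the replicate number in total RNA and the line with the number in the IP fit. The deposited ratios are formed between same-numbered IP and total RNA of a line; the labels do not say that these share a culture. After group means were removed, same-numbered libraries correlated at 0.70 to 0.95 in total RNA (9 pairs) and at 0.57 to 0.91 with the IPs included (18 pairs). Replicates 1 and 2 of different groups correlated at 0.64 to 0.80 and 0.59 to 0.74. Replicate 3 correlated with either at -0.72 or below and -0.68 or below. These negative values follow from removing means of 3 libraries when replicates 1 and 2 correlate, so they are no separate observation. P-values were 2-sided. All 10 members were named in every comparison, and examples of the 3 further lists where they passed. The members, lists, block and centring were chosen with earlier results of these data known. Alternatives changed the block, the centring, the pseudocount (0.1 or 1), the filter (none or 5 TPM), the groups fitted and the replicates. TPM carries no read depth, so no counting intervals are given.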

Additional observations from a re-analysis of the deposited data

Results flagged for a closer look

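SRSF5 was the member for which the test of the difference between the isoforms passed: its recovery over total RNA was lower with UPF1-1 than with UPF1-2 by a log2 difference of -0.55 ± 0.13 (SE, limma adjusted p = 0.037), lower in 3 of 3 replicates. SRSF5 had the fewest estimated counts of the members, and its total RNA was 0.26 ± 0.09 higher in the UPF1-1 than in the UPF1-2 line without passing (adjusted p = 0.095). The part of either in the result was not tested.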

How the results depend on the processing

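Of the IP calls, those of SRSF1, SRSF5 and TRA2A with each isoform kept direction and significance in all 10 alternatives with centring. Without centring all 10 members were called higher with each isoform and 0 lower, with or without the replicate block. There the UPF1-1 ratios turned positive for SRSF2 (2.45), SRSF4 (1.87), SRSF5 (1.35), SRSF7 (2.30), TRA2A (1.53) and TRA2B (2.37), and the UPF1-2 ratios for SRSF4 (1.99), SRSF5 (1.86), TRA2A (1.69) and TRA2B (2.26), by the construction of the scale. With UPF1-1, where 3 members were higher and 5 lower, no replicate block gave 1 and 2; upper quartiles, the 0.1 TPM pseudocount, the 5 TPM filter and a fit of those groups alone each gave 1 higher, and the 1 TPM pseudocount 3 lower. Leaving out a replicate gave 1 to 2 higher and 3 to 5 lower. With UPF1-2, where 4 were higher and 4 lower, no replicate block gave 2 and 2, the 0.1 TPM pseudocount 2 higher with SRSF7 turning negative (-0.19), and the 1 TPM pseudocount 6 higher and 3 lower; leaving out a replicate gave 1 to 5 higher and 3 to 4 lower. For UPF1-1 against GFP total RNA, 1 member lower became 0 without the replicate block, without centring, without both and without the filter, 2 with upper quartiles and 3 in a fit of those groups alone, and leaving out a replicate gave 0 each time. Between the UPF1 lines' total RNA, 1 member was lower (SRSF3) with upper quartiles and with the 5 TPM filter, against 0. The SRSF5 isoform difference went to 0 members without the replicate block, without centring, without both, with upper quartiles, and with each replicate left out. The causes were not tested. Over all genes, calls for UPF1-1 against GFP were 781 higher and 726 lower, 11 and 5 with no replicate block, 266 and 35 without centring, and 1211 and 1345 of 8271 genes in the fit of those groups alone; for the isoform difference in recovery 1280 in all became 0 with no replicate block, where 846 had an unadjusted p under 0.05 by limma, and 0 without centring, where 1878 did.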

Other observations

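The members differed in how far replicate 3 stood from replicates 1 and 2 of its group after library medians were set equal. SRSF5 was higher in replicate 3 in all 5 groups, by 0.36 in UPF1-1 IP and 0.60 in UPF1-2 IP, and in total RNA by 0.36 with UPF1-1, 0.41 with UPF1-2 and 0.34 with GFP (log2, replicate 3 minus the mean of the other two). SRSF4 was higher there too, by 0.99 in UPF1-1 IP and 0.30 in UPF1-2 IP and by 0.46, 0.54 and 0.17 in UPF1-1, UPF1-2 and GFP total RNA. SRSF7 and SRSF3 went the other way in all 5 groups, SRSF7 by -0.27 in UPF1-1 IP and -0.35 in UPF1-2 IP, and in total RNA by -0.25 with UPF1-1, -0.24 with UPF1-2 and -0.41 with GFP. Such values were common over all genes: 22.9 to 39.4% of them lay below SRSF7 and 30.6 to 44.8% below SRSF3. For SRSF5 this was 74.0 to 86.4% and for SRSF4 63.4 to 94.1%. SRSF11 was higher in replicate 3 by 0.61 in each IP, but differed by -0.07 in UPF1-1 total RNA. These are values of single libraries and carry no test.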
